A study of Homo sapiens with 6 samples.

Results

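The genes described here handle ATP, NAD and adenosine at and near the cell surface. They are 9 genes of the 33644 in the table, chosen by function: ENTPD1, NT5E, CD38, ADA, DPP4, ADK, ADORA2A, ADORA2B and P2RX7. Extracellular ATP is a danger signal, and cell-surface enzymes convert it stepwise to adenosine, which damps lymphocyte activity through receptors that raise cyclic AMP. ENTPD1 (CD39) removes phosphates from ATP and ADP to give AMP, and NT5E (CD73) converts AMP to adenosine. CD38 consumes NAD, ADA and ADK remove adenosine, and DPP4 (CD26) anchors ADA on human T lymphocytes. The choice was made with the levels and changes of these genes known, so their values are given as a description and support no test.

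By its labels the series compared 3 samples of an alt-LAMA3 KO derivative (genotype alt-LAMA3 KO, no treatment, day 0) with 3 samples of HEK293T cells (genotype WT, no treatment, day 0). HEK293T is a line of human embryonic kidney origin that expresses SV40 large T antigen, and LAMA3 encodes a laminin alpha chain. The labels do not say whether the samples of a group were separate cultures or how many clones the derivative came from. The only table used holds 1 comparison between 2 groups that its header does not name, and no value per sample, so spreads over samples cannot be given. A positive log2 fold change means higher expression in what is here named the numerator group, set against the denominator group. Whether these 2 groups are the labelled genotypes at all, or which would be which, is not known, and no genotype is assigned.

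The content of the table did not match the labelled cell type. In the authors' deposited table, 13 of 16 T-lymphocyte markers had a mean normalized count of at least 72.0, which is 5 per 1000000 of the summed means, against 1 of 16 markers of HEK293T and kidney epithelial cells. Of those 16, NEFL, NEFM, SALL1, KRT19 and DACH1 were listed at 0. The T-lymphocyte markers below the level were CD28 (49.6), CD5 (1.87) and CD4 (1.83). The level was reached by 3 of 6 markers of regulatory T cells, 1 of 6 of NK cells, 0 of 8 of B cells, 2 of 8 of myeloid cells and 2 of 11 of stromal and endothelial cells. FOXP3 and CTLA4 were listed at 0. Whether all reads of the markers at 0 were counted is not known. In addition, 9 very low means were each shared by at least 50 genes, as a single read in 1 library would give. Genes at 3 of these values had fold changes above 0, at 3 below 0 and at 3 equal to 0, where 6 labelled samples would give 6 values. A mean may therefore also average libraries that are in neither group, and a gene's level in each group is not known.

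ENTPD1 had the highest mean of the 9 genes, and that of NT5E, which acts on its product, was among the lowest. ENTPD1 had a mean normalized count of 9982 in the authors' deposited table, above 99.1% of the 21103 genes with a mean above 0. That of ADK was 992, of DPP4 463 and of CD38 447 in the authors' deposited table. ADA had 196, ADORA2A 146, ADORA2B 69.9 and NT5E 52.1, again as means of the authors' deposited table. P2RX7 stood at 0.658 in the authors' deposited table, which is worth 4.48 to 11.2 single reads over all libraries together.

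The means were also divided by the length of each gene's exons in GENCODE 29. They can then be compared between genes only if the reads of each gene were counted in full, which is not known. ENTPD1 had 1431 mean normalized counts per kilobase, ADK 312 and DPP4 92.5. ADA and CD38 were close together at 68.9 and 65.2 per kilobase, followed by ADORA2A at 34.8, ADORA2B at 27.4 and NT5E at 11.5. P2RX7 was last at 0.119 per kilobase. The level per kilobase of ENTPD1 was 125 times that of NT5E and lay above 98.3% of 15375 protein-coding genes with a mean above 0. That of NT5E lay above 43.9% of them and that of P2RX7 above 9.22%. The median of these protein-coding genes was 20.1 per kilobase. No error can be attached to this order, since values per library are lacking. It is an order of means pooled over libraries and need not hold within either group, because the genes changed by different amounts between the groups, as given below.

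**Figure D1:**
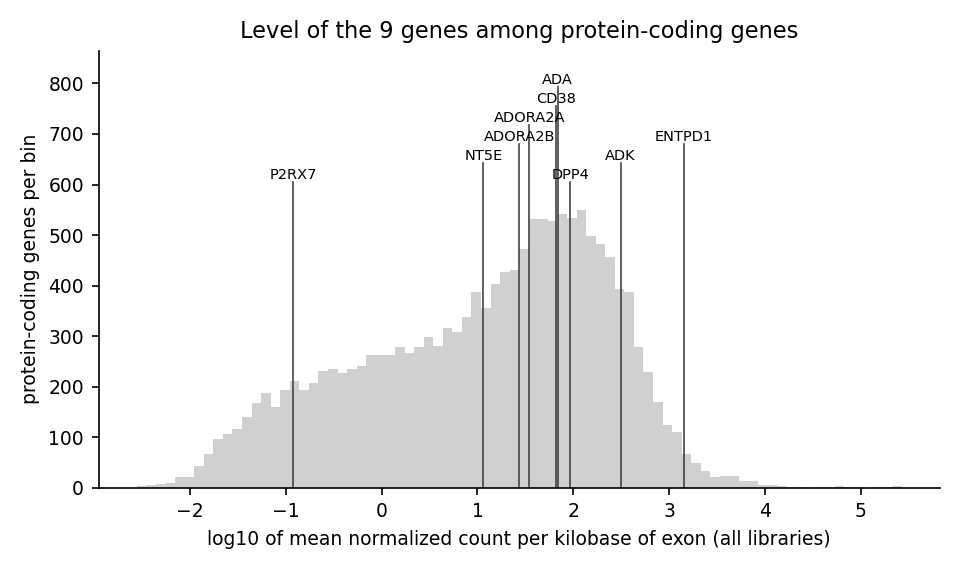
Histogram of the mean normalized count per kilobase of exon (log10 scale, over all libraries) for 15375 protein-coding genes, with a line for each of the 9 adenosine pathway genes. ENTPD1 (1431) and ADK (312) lie on the right of the distribution, P2RX7 (0.119) far on the left and the other 6 genes between 11.5 and 92.5.

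Between the groups, 3 of the 9 genes were lower and 2 were higher in the numerator group at a deposited adjusted p of 0.05, 3 did not pass and P2RX7 had no adjusted p. Over all 13957 genes with an adjusted p, 29.5% passed, 14.7% higher and 14.8% lower in the numerator group. The median log2 fold change of the 8 members with an adjusted p was -0.15, where that of all tested genes was 0.00. Nothing is read from these counts, because the members were chosen with this comparison in view. The changes were of very unequal size. NT5E, CD38 and ADORA2B each moved by more than 97% of tested genes in absolute log2 fold change (98.1%, 97.2% and 98.1% of genes moved less), whereas ENTPD1, ADA and ADK lay between 41.5% and 47.4%, and DPP4 and ADORA2A at 21.0% and 23.1%.

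**Figure D2:**
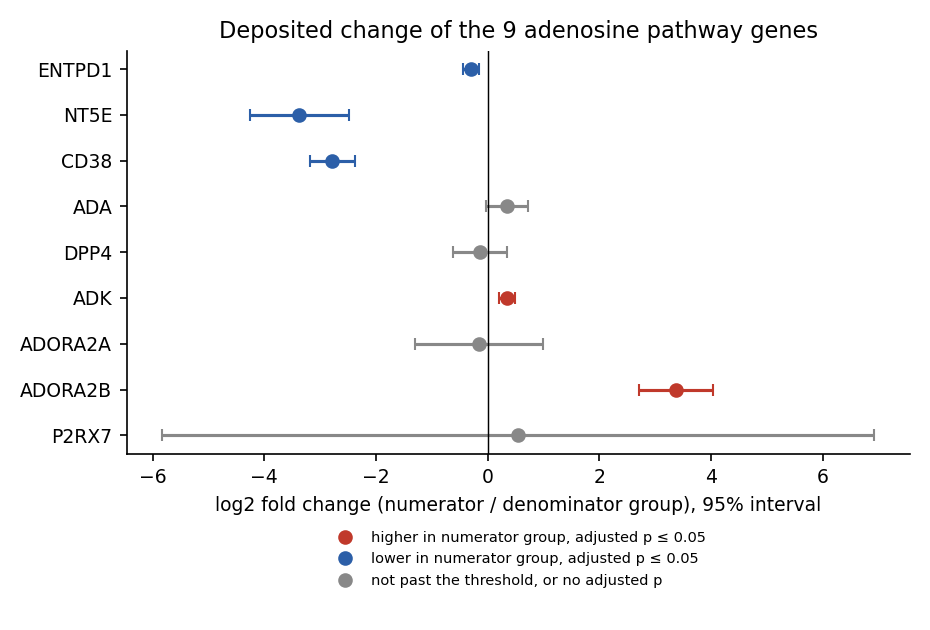
Deposited log2 fold change of each of the 9 genes, numerator over denominator group, with a 95% interval from the deposited standard error. The intervals of NT5E and CD38 lie below -2.38 and that of ADORA2B above 2.72, those of ENTPD1 and ADK lie within 0.5 of 0 on 1 side, and the others include 0.

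The enzymes that act on ATP, AMP and NAD were all lower in the numerator group, by different amounts. ENTPD1 (ENSG00000138185.19, chromosome 10 from 95711779 to 95869695, plus strand, GRCh38) was at -0.29 on the log2 scale (SE 0.07, adjusted p = 0.000320; the authors' deposited table), which is 1.23-fold lower. NT5E (ENSG00000135318.11, chromosome 6 from 85449584 to 85495791, plus strand) had -3.37 (SE 0.45, adjusted p = 1.36e-12; the authors' deposited table). This is 10.4-fold lower in the numerator group, with a 95% interval of 5.61 to 19.1-fold. CD38 (ENSG00000004468.12, chromosome 4 from 15778275 to 15853230, plus strand) had -2.78 (SE 0.20, adjusted p = 6.16e-41; the authors' deposited table), or 6.87-fold lower, with a 95% interval of 5.22 to 9.05-fold. The call of ENTPD1 was lost against a 1.5-fold change (adjusted p = 1) and with every error multiplied by the 2.03-fold spread of the statistics over all genes (adjusted p = 0.295; errors so treated are called widened below), while those of NT5E and CD38 were kept in both. Of all tested genes, 4.68% passed against a 1.5-fold change and 8.57% with widened errors, and of the members 3 passed in each. A gene with a change below 1.5-fold, such as ENTPD1, cannot pass against a 1.5-fold change, however small its error. Here and below, such a loss gives the size of the change and not its precision.

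The list of other NTPDases, ectonucleotide pyrophosphatases and phosphatases includes enzymes of the cell surface and of internal membranes. Of its 13 genes 6 had an adjusted p, of which 5 were lower, 0 higher and 1 did not pass, where 14.8% of all tested genes were lower. The median log2 fold change of these 6 was -0.42, and 7 genes were too low to be tested. ENTPD4, an intracellular NTPDase, was at -0.48 (SE 0.11) and ENTPD6 at -0.36 (SE 0.12) in the authors' deposited table. CANT1, a nucleotidase of the secretory pathway, had the highest mean of the list, 801, with -0.26 (SE 0.09) in the authors' deposited table. ALPL, the tissue-nonspecific alkaline phosphatase, which can also convert AMP to adenosine, and ENPP3, an ectonucleotide pyrophosphatase, are named after their values were seen. ALPL had a mean of 45.8 and a log2 change of -9.77 (SE 1.25, adjusted p = 1.05e-13; the authors' deposited table). ENPP3 had a mean of 19.5 and -6.08 (SE 1.27, adjusted p = 1.31e-05; the authors' deposited table), a call lost with widened errors (adjusted p = 0.150). At such means, changes this large leave few or no reads in the numerator group. The folds of ALPL and ENPP3 are therefore uncertain in size. All the other calls of the list except that of ALPL were also lost with widened errors, and those of ENTPD4, ENTPD6 and CANT1 against a 1.5-fold change as well.

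Other genes of NAD metabolism went both ways. Of 21 genes 14 had an adjusted p, of which 2 were higher, 3 lower and 9 did not pass, with a median log2 fold change of -0.24. Among all tested genes, 14.7% were higher and 14.8% lower. BST1, the paralogue of CD38, had a mean of 2.34 in the authors' deposited table and a log2 fold change of -0.85 (SE 2.25). TRPM2, a calcium channel opened by ADP-ribose, a product of CD38, was at -1.16 (SE 0.29) in the authors' deposited table. NAMPT, which makes the NAD precursor NMN, was at -0.42 (SE 0.09), and NADSYN1, NAD synthetase, at 0.39 (SE 0.06) with the highest mean of the list, 2369, in the authors' deposited table. The calls of TRPM2 (adjusted p = 0.587 and 0.300) and NAMPT (adjusted p = 1 and 0.174) were lost against a 1.5-fold change and with widened errors, and that of NADSYN1 against a 1.5-fold change (adjusted p = 1).

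Of 16 T-lymphocyte markers 14 had an adjusted p, of which 10 were lower, 0 higher and 4 did not pass, with a median log2 fold change of -0.51, where 14.8% of all tested genes were lower. For NK cells 3 of 4 markers with an adjusted p were lower and 0 higher, and for regulatory T cells 3 of 4 were lower and 0 higher. B cell and myeloid markers each had 1 lower and 1 higher, of 3 and 6 with an adjusted p, and stromal and endothelial markers had 1 lower and 2 higher of 7. Of the markers of HEK293T and kidney epithelial cells, 0 of 7 passed. Summed over each list, the mean normalized counts were 77827 for T lymphocytes, 31035 for regulatory T cells, 1162 for myeloid cells, 1099 for stromal and endothelial cells, 682 for NK cells, 252 for HEK293T and kidney epithelial cells and 49.9 for B cells. A single gene gave most of several of these sums. IL2RA gave 27989 for regulatory T cells, CD33 1028 for myeloid cells and PECAM1 879 for stromal and endothelial cells. NCAM1 gave 576 for NK cells and UCHL1 200 for HEK293T and kidney epithelial cells. The sums therefore do not rank cell types by amount. Sums per group are not known, and the part of cell composition in the results was not tested. In bulk RNA, fewer cells of a type and less RNA per cell cannot be told apart.

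Of the genes that remove adenosine, the kinase was higher in the numerator group and the deaminase did not pass. ADK (ENSG00000156110.13, chromosome 10 from 74151185 to 74709303, plus strand) phosphorylates adenosine back to AMP inside the cell. In the authors' deposited table it was at 0.35 on the log2 scale (SE 0.07, adjusted p = 1.50e-05), a 1.27-fold rise with a 95% interval of 1.15 to 1.41-fold. ADA (ENSG00000196839.12, chromosome 20 from 44619522 to 44652233, minus strand), which deaminates adenosine to inosine, had nearly the same log2 fold change, 0.35, with a larger error (SE 0.19, adjusted p = 0.176; the authors' deposited table). The 95% interval of ADA was 0.980 to 1.65-fold and contained that of ADK, so the call of 1 and not of the other does not show that they differ. Per kilobase, the level of ADK was 4.53 times that of ADA. The call of ADK was lost with widened errors (adjusted p = 0.155). It was also lost against a 1.5-fold change, which a fold of 1.27 cannot pass however small its error.

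DPP4 (ENSG00000197635.9, chromosome 2 from 161992241 to 162074542, minus strand), a serine protease that trims chemokines and binds ADA, was at -0.14 on the log2 scale (SE 0.25, adjusted p = 0.757; the authors' deposited table). Its 95% interval ran from 0.649 to 1.27-fold. The standard error of DPP4 was larger than those of 98 of the 100 tested genes nearest to it in mean, whose median was 0.14. Of the 8 peptidases listed beside DPP4, 5 had an adjusted p. Of these, 1 was higher, 1 lower and 3 did not pass, where 14.7% of all tested genes were higher and 14.8% lower. The median log2 fold change of the 5 was 0.04. DPP3, which shares the name but is not a relative, was among those that did not pass, at 0.04 (SE 0.09). PREP, prolyl endopeptidase, was at 0.70 (SE 0.16) and DPP9, a cytosolic dipeptidyl peptidase, at -0.54 (SE 0.07) with the highest mean of the list, 1907, in the authors' deposited table. Both calls were lost against a 1.5-fold change (adjusted p = 1 for each), and that of PREP also with widened errors (adjusted p = 0.204).

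Other enzymes of adenosine and purine nucleosides went both ways. Of 23 genes 19 had an adjusted p, of which 4 were higher, 5 lower and 10 did not pass, with a median log2 fold change of -0.01. Among all tested genes, 14.7% were higher and 14.8% lower. ADA2, a secreted adenosine deaminase, had a mean of 1697 and a log2 change of -2.12 (SE 0.10, adjusted p = 3.52e-105; the authors' deposited table). It was thus 4.35-fold lower in the numerator group. AK4, a mitochondrial adenylate kinase, was at 1.03 (SE 0.11) in the authors' deposited table. Nucleoside transporters, which carry adenosine across membranes, had low means in the table, and whether these count all of their reads is not known. None of the 7 reached a mean of 72.0, and of the 3 with an adjusted p, 1 was higher, 1 lower and 1 did not pass, with a median of 1.39. SLC29A2, an equilibrative transporter, had the highest mean, 58.7, with a log2 fold change of -1.22 (SE 0.43) in the authors' deposited table, and SLC29A4, named after its value was seen, was at 2.53 (SE 0.78). Both calls were lost against a 1.5-fold change (adjusted p = 1 and 0.206) and with widened errors (adjusted p = 0.648 and 0.518), and that of SLC29A2 also at an adjusted p of 0.01.

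Sequence before the transcription starts is shown for ENTPD1, CD38 and ADK. These are the members past the threshold with the longest RefSeq promoter stretches outside the gene's own GENCODE exons. Whether exons of other genes lie in these stretches was not checked. RefSeq on GRCh38.p14 had a promoter for 8 of the 9 genes. All 3 stretches are on the plus strand, at chr10:95693935-95694184 for the first of the 5 starts of ENTPD1, chr4:15778078-15778274 for CD38 and chr10:74150971-74151184 for the first of the 2 starts of ADK. The stretch shown for ENTPD1 lies before the start of the gene as GENCODE 29 gives it, and the other starts of ENTPD1 lie within the gene and are not shown. Which start was used in these cells is not known. Capitals mark matches, on either strand, to TGACGTCA (the cyclic AMP response element), TGACG (its half-site, contained in it), ACGTG and GCGTG (cores bound by hypoxia-inducible factors), GGGCGG (GC box) and TGANTCA (AP-1).
ENTPD1: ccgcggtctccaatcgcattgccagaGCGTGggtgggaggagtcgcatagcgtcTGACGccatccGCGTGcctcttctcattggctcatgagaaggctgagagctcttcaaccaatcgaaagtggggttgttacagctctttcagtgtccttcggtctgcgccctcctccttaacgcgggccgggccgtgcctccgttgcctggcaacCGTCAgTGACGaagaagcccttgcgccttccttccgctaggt
CD38: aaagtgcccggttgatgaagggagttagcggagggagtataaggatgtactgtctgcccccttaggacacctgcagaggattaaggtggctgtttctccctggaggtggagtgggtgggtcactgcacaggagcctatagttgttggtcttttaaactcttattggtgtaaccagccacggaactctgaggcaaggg
ADK: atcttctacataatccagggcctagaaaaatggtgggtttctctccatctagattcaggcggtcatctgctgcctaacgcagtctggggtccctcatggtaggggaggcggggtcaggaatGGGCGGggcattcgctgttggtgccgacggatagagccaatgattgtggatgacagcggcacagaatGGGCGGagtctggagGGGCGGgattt
The 250 bases of ENTPD1 held 3 half-sites and 2 GCGTG cores. At least 1 half-site was found in 21.2% of 34943 promoter stretches of the same length and at least 1 GCGTG core in 32.2%. The 214 bases of ADK held 3 GC boxes, and at least 1 was found in 38.0% of stretches of that length. The 197 bases of CD38 held none of the 6 motifs, which occurred in 0.893% (TGACGTCA) to 34.2% (GGGCGG) of stretches of that length. A match is a description of these letters and does not show binding. The small changes of ENTPD1 and ADK and the large one of CD38 are those given above.

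The pair of receptors that raise cyclic AMP on binding adenosine differed in what the table gave for them. ADORA2B (ENSG00000170425.3, chromosome 17 from 15944917 to 15975746, plus strand), the low-affinity receptor, was at 3.38 on the log2 scale (SE 0.34, adjusted p = 4.92e-22; the authors' deposited table). It was 10.4-fold higher in the numerator group, with a 95% interval of 6.58 to 16.5-fold, at a mean normalized count of 69.9. ADORA2A (ENSG00000128271.21, chromosome 22 from 24417879 to 24442360, plus strand), the high-affinity receptor that is prominent on lymphocytes, had -0.15 (SE 0.58, adjusted p = 0.893; the authors' deposited table). Its 95% interval ran from 0.407 to 1.99-fold. The interval of ADORA2A thus excluded the fold of ADORA2B, but the difference between these genes was not tested. The standard error of ADORA2A exceeded those of 96 of the 100 tested genes nearest in mean, whose median was 0.26. For ADORA2B it exceeded 46 of 100. By the same measure, the error exceeded 88 of 100 for ENTPD1, 83 for CD38, 70 for NT5E, 43 for ADA and 10 for ADK. Large errors for the mean were thus not confined to genes that did not pass.

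**Figure D3:**
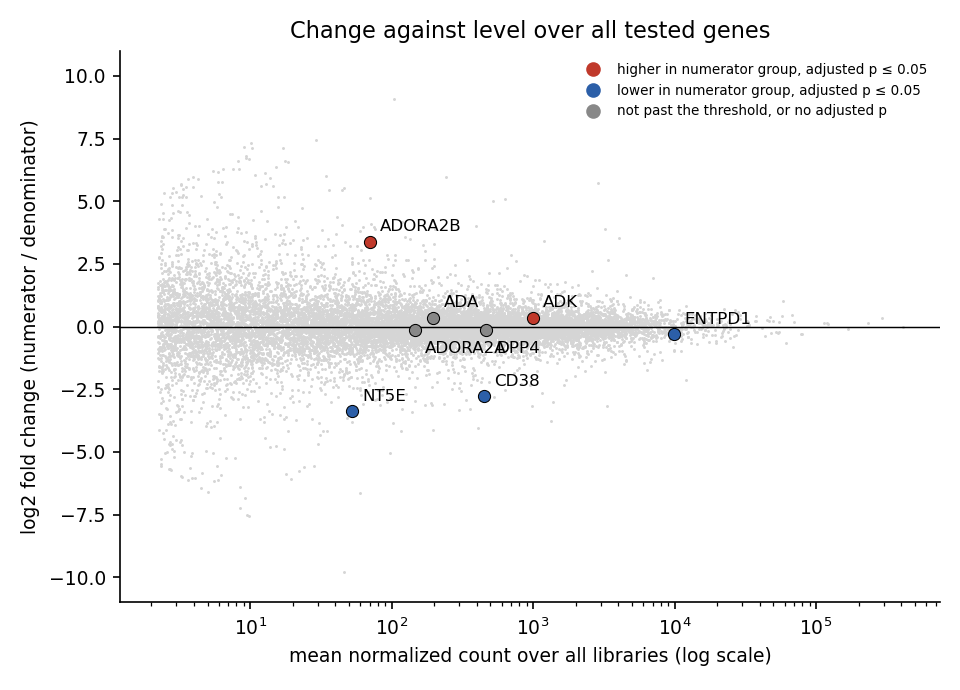
Deposited log2 fold change, numerator over denominator group, against the mean normalized count over all libraries (log scale) for the 13957 tested genes in grey, of which 2 lie outside the axis, with the 8 tested members marked. NT5E (-3.37) and CD38 (-2.78) lie below, and ADORA2B (3.38) above, most genes of like mean, while ENTPD1, ADK, ADA, DPP4 and ADORA2A lie close to 0.

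P2RX7 (ENSG00000089041.16, chromosome 12 from 121132819 to 121188032, plus strand), the ATP-gated channel linked to inflammasome activation and to shedding of surface proteins, was close to the limit of what was counted. Its log2 fold change of 0.55 had an SE of 3.25 in the authors' deposited table, with no adjusted p, and its 95% interval on the log2 scale ran from -5.82 to 6.93, too wide to show a difference or its absence. Among 14 other adenosine and nucleotide receptors that the table lists, 6 had an adjusted p. Of these, 3 were lower, 0 higher and 3 did not pass, where 14.8% of all tested genes were lower and 14.7% higher. The median log2 fold change of the 6 was -0.27. P2RX4, another ATP-gated channel, had a mean of 913 and -0.72 (SE 0.08, adjusted p = 1.38e-16; the authors' deposited table), a 1.65-fold fall. It was the only one of the 14 receptors at a mean of 72.0 or more. The other 2 that were lower, named after their values were seen, were P2RX5 at -2.52 (SE 0.90) and P2RY14 at -1.73 (SE 0.66) in the authors' deposited table. Both calls were lost at an adjusted p of 0.01, against a 1.5-fold change (adjusted p = 0.434 and 0.894) and with widened errors (adjusted p = 0.667 and 0.725), and that of P2RX4 was lost against a 1.5-fold change (adjusted p = 1). ADORA1 was listed at 0 and ADORA3 had a mean of 1.69 in the authors' deposited table.

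In lists of ATP release and of responses linked to P2RX7, the called shares, 2 of 6 and 1 of 5, were not far from the 29.5% of all tested genes. Of 8 genes of the inflammasome and of shedding 5 had an adjusted p, of which 1 was lower and 4 did not pass, with a median log2 fold change of -0.52. The lower one was ADAM10, a sheddase, with the highest mean of the list, 3558, and a log2 fold change of -0.52 (SE 0.06) in the authors' deposited table, a call lost against a 1.5-fold change (adjusted p = 1). Of 9 genes of ATP release that the table lists, 6 had an adjusted p, of which 1 was higher, 1 lower and 4 did not pass, with a median of -0.51. PANX2, a pannexin, was 2.83-fold higher (SE 0.10 on the log2 scale) and CALHM2, a calcium homeostasis modulator channel, at a log2 fold change of -0.98 (SE 0.10) in the authors' deposited table. LRRC8A, a volume-regulated anion channel subunit, had the highest mean of that list, 805, and a log2 change of -0.03 (SE 0.07, adjusted p = 0.825; the authors' deposited table).

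Both adenosine receptors signal through cyclic AMP. Of the 30 genes of that arm 16 had a mean of at least 72.0. Of the 24 with an adjusted p, 3 were higher, 3 lower and 18 did not pass, a called share of 25.0% that is near the 29.5% of all tested genes, and the median log2 fold change was 0.09. GNAS, the stimulatory G protein alpha subunit, had a mean of 18840 and a log2 change of 0.05 (SE 0.03, adjusted p = 0.342; the authors' deposited table). PRKAR1B, a regulatory subunit of protein kinase A, was at -0.54 (SE 0.21) and PRKACB, a catalytic one, at -0.42 (SE 0.06), as listed in the authors' deposited table. Both calls were lost against a 1.5-fold change (adjusted p = 1 for each), and that of PRKAR1B also with widened errors (adjusted p = 0.732). Over all 9 lists, which share no gene with the 9 members, 88 genes had an adjusted p, of which 12 were higher (13.6%) and 23 lower (26.1%), where 14.7% and 14.8% of all tested genes were. The lists were chosen with results of these data known, and the share of a list is a description of it.

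**Figure D4:**
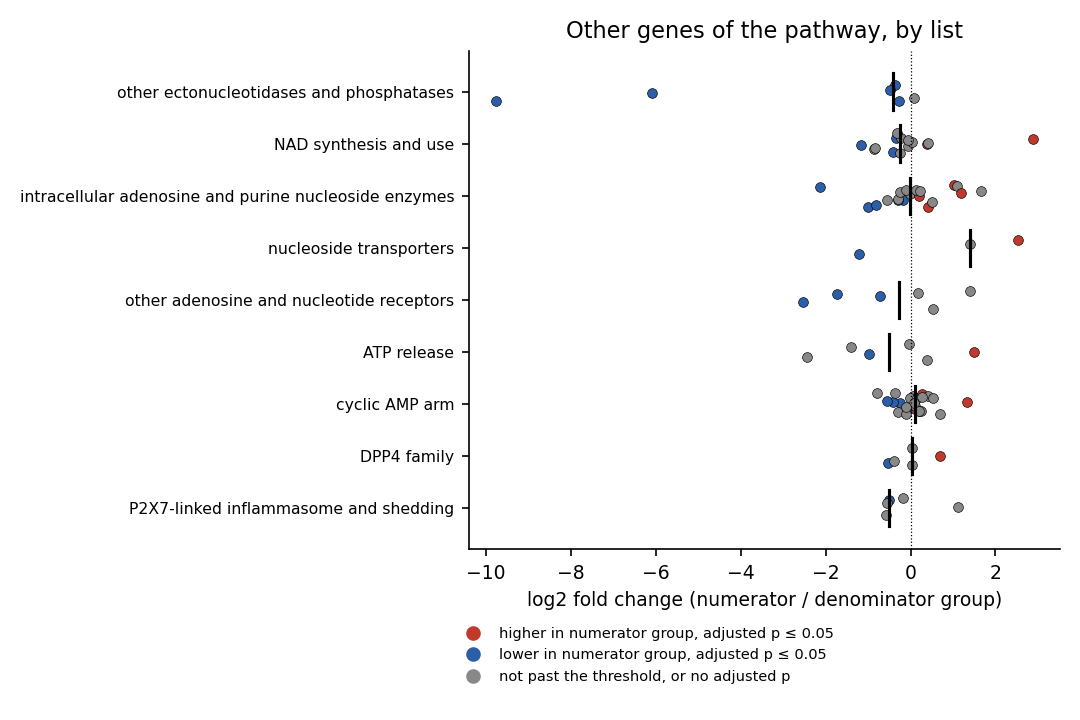
Deposited log2 fold change, numerator over denominator group, of each gene with an adjusted p in the 9 lists of other pathway genes, with a black bar at each list's median. The list of other ectonucleotidases and phosphatases, which includes enzymes of internal membranes, has 5 of 6 genes lower. The lowest are ALPL (-9.77) and ENPP3 (-6.08), whose folds are uncertain in size at their low means. The cyclic AMP arm lies around 0 with 18 of 24 genes not past the threshold.

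Overlapping genes limit some of these values, since whether the counting used strand is not given in the sources used here. Exons of ADA overlap PKIG on the opposite strand, which had a mean of 52.5 in the authors' deposited table. ADORA2A shares exons with the readthrough gene SPECC1L-ADORA2A, which had a mean of 2.65 in the authors' deposited table, and overlaps the antisense gene ADORA2A-AS1. ENTPD1, DPP4 and ADK also overlap antisense genes in GENCODE 29, and ENTPD1 and ADK each overlap a further gene on their own strand, AL365273.2 (mean 13.9) and MRPL35P3 (mean 0.445) in the authors' deposited table. No exon of another gene overlaps NT5E, CD38, ADORA2B or P2RX7 there.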

How the data were processed

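Per the labels, libraries for RNA sequencing were prepared from total RNA of both lines with a SMARTer mRNA kit. The submitters' processing notes name STAR, Salmon and hg38 but give no version or role. The deposited table has, per the file headers, the column names of a DESeq2 results table. Its mean normalized count is a signal averaged over libraries by the authors. The fold change and the error deposited with it are in log2 units, and their ratio equalled the deposited test statistic, a score, to within 4.23e-07. The deposited p-value has an adjusted form that equalled Benjamini-Hochberg adjustment over 13957 genes to within 3.66e-07.

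No sample's values are in the table, so the planned per-sample tests could not be run and the deposited comparison was used. The labels do not call the samples separate cultures, so p-values may reflect technical spread. The depth of each library is unknown. Of 33644 gene IDs, 33483 matched a table of names and 33582 GENCODE 29. Intervals are the fold change with 1.96 standard errors (95%). The members and lists were chosen with earlier results of these data known. Named genes are the 9 members and, per list, up to 2 genes past an adjusted p of 0.05 with a mean of at least 72.0 and the largest change, and the gene of highest mean; 1 gene that this rule takes is not reported here. Alternatives were other thresholds, sets of genes adjusted over, a 1.5-fold null, widened errors, centring and another gene length. Python 3.11.15, numpy 2.4.6, pandas 2.3.3, scipy 1.17.1 and matplotlib 3.10.9 were used. The adjustment, the 1.5-fold null and the single-read values were tested on simulated data. Those data did not have the 2.03-fold spread of the statistics, and widened errors were not tested on them.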

Additional observations from a re-analysis of the deposited data

How the results depend on the processing

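Of the 9 members, 5 passed an adjusted p of 0.05 in the deposited comparison and also at 0.01, with adjustment over every gene with a p-value or over protein-coding genes, and after centring. The count was 3 against a 1.5-fold change and 3 with errors widened 2.03 times, where ENTPD1 and ADK lost their calls. It was also 3 with adjustment over genes with a mean of at least 72.0, because NT5E and ADORA2B lie below that mean and were not among the genes adjusted. Adjusted p-values over the alternatives ranged from 3.67e-41 to 1.15e-09 for CD38, from 1.24e-12 to 0.00421 for NT5E and from 3.54e-22 to 2.89e-05 for ADORA2B. Of the other pathway genes 35 passed, against 7 for a 1.5-fold change and 12 with widened errors, where 653 and 1196 of all tested genes passed in place of 4120. Against a 1.5-fold change, a gene with a change below 1.5-fold cannot pass. The cause of the other losses was not tested. Over all members and other genes named, 206 results kept their direction and side of the threshold and 42 kept their direction but lost the call, 20 of them against a 1.5-fold change and 16 with widened errors. The 206 include results of genes that did not pass in the deposited comparison, such as ADA, DPP4 and ADORA2A, which had no call to lose. They are therefore no measure of how stable the calls were. The median level of the members was 65.2 per kilobase of exon and 78.9 per kilobase of the longest transcript. No paired analysis was possible because the table holds no value per sample, and leaving out replicates was not run for the same reason.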

Other observations

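Some further genes of the lists were named after their values were seen. ART3, of the ADP-ribosyltransferase family, had a log2 fold change of 2.88 (SE 0.66) at a mean of 18.1 in the authors' deposited table, a call lost with widened errors (adjusted p = 0.230).  ADCY1, an adenylyl cyclase, was at 1.33 (SE 0.34) in the authors' deposited table, lost against a 1.5-fold change (adjusted p = 0.415) and with widened errors (adjusted p = 0.338).

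Some genes that most cells use were low, though HPRT1 was not. HPRT1, the purine salvage enzyme often used as a reference gene, had a mean of 92.0 and a log2 fold change of 1.08 with an SE of 2.01 in the authors' deposited table. Its level was 56.7 per kilobase, where the median of protein-coding genes was 20.1. PARP1, an abundant nuclear enzyme that consumes NAD, had a mean of 20.2, and SLC29A1, the main equilibrative nucleoside transporter, 0.762 in the authors' deposited table. PANX1 was listed at 0. Whether the low value of P2RX7, or the value of any other member, counts all of its reads is therefore not known.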
